A study of Arabidopsis thaliana with 9 samples.

Results

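The genes described here are the photosynthesis and NDH genes of the Arabidopsis plastid genome, the genes for photosystem I (PSI), photosystem II (PSII), the cytochrome b6f complex, the plastid ATP synthase, the NDH complex and the large subunit of Rubisco. Members were the probe sets of the ATH1 array annotated to 1 plastid gene whose symbol begins with psa, psb, pet or ndh, or is rbcL, atpA, atpB, atpE, atpF, atpH or atpI. There were 43 such probe sets, 1 per gene, among 22746 probe sets tested: 5 for PSI, 15 for PSII, 6 for cytochrome b6f, 6 for the ATP synthase, 10 for NDH and 1 for rbcL. Of 44 genes on the plastid genome that meet the rule, ndhB had no member, because its probe set is annotated to more than 1 gene. The rule used annotation and no measured value, but the set was chosen with earlier results of these data known.

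The study asked which leaf transcripts respond to DVL4, a small peptide gene of the DEVIL/ROTUNDIFOLIA family, when it is induced in Columbia plants. All 3 groups carried a GVG construct, in which dexamethasone (dex) activates a chimeric transcription factor that drives any coding sequence placed behind its target promoter. The DVL4 mock group was the line with the DVL4 coding sequence after mock treatment, the DVL4 dex group was the same line after 30 µM dex in water, and the empty vector dex group was a line with no inserted coding sequence after the same dex treatment. Plants had 6 expanded rosette leaves and were kept at 22 °C with 16 h days, leaves were taken 10 h after treatment, and each of the 3 arrays per group held RNA pooled from the largest leaf of 20 plants. No mock-treated empty vector group is given, so DVL4 mock differs from empty vector dex in both line and treatment. DVL4 had no named probe set here and its induction was not checked, and how many independent transformants each line stands for is not given in the sources used here.

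Plastid genomes keep the genes for core subunits of the thylakoid complexes, while nuclear genes encode the other subunits and much of the machinery that transcribes and processes plastid RNA. Light drives electrons from PSII through the cytochrome b6f complex to PSI, the ATP synthase uses the resulting proton gradient, the NDH complex returns electrons around PSI, and Rubisco fixes carbon dioxide. Most plastid genes lie in operons that are transcribed together and cut into smaller RNAs. Plastid mRNAs also differ from nuclear mRNAs in that they carry no long stable poly(A) tail.

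Values are the authors' deposited intensities on a linear scale, and log2 changes are from limma fitted to all 9 arrays and all 22746 probe sets, with a Benjamini-Hochberg adjusted p under 0.05 called a change. Array medians ran from 75.4 to 84.1. The leaf markers RCA, PRK and LHCB4.1, the 3 of 7 listed markers with a named probe set, lay at 7295 or more in each array, whereas the root markers PYK10, EXPA7 and EXPA18, 3 of 6 listed, lay at 57.3 or less. Control probe sets at the 5′ and 3′ ends of the bacterial dap transcript, an Affymetrix labelling control, had a 5′ over 3′ ratio under 0.5 in 3 arrays: 0.228 in empty vector dex 1, 0.278 in DVL4 dex 1 and 0.262 in DVL4 dex 2. These are called the low-5′ arrays. In the other 6, the high-5′ arrays, the ratio was 0.601 to 1.33, and these included every mock array, empty vector dex 2 and 3, and DVL4 dex 3. The ratios of the lys, phe and thr controls and of Arabidopsis actin and GAPDH were also lower in the 3 low-5′ arrays than in the other 6, with actin at 0.0539 to 0.0804 against 0.0945 to 0.165. The ratio of Arabidopsis ubiquitin did not separate them, at 0.543 to 0.654 in the low-5′ arrays, with DVL4 dex 1 the highest of all 9, against 0.617 to 0.652. The group comparisons below are given with and without the low-5′ arrays. Which step of sample handling the ratio follows was not tested.

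**Figure D1:**
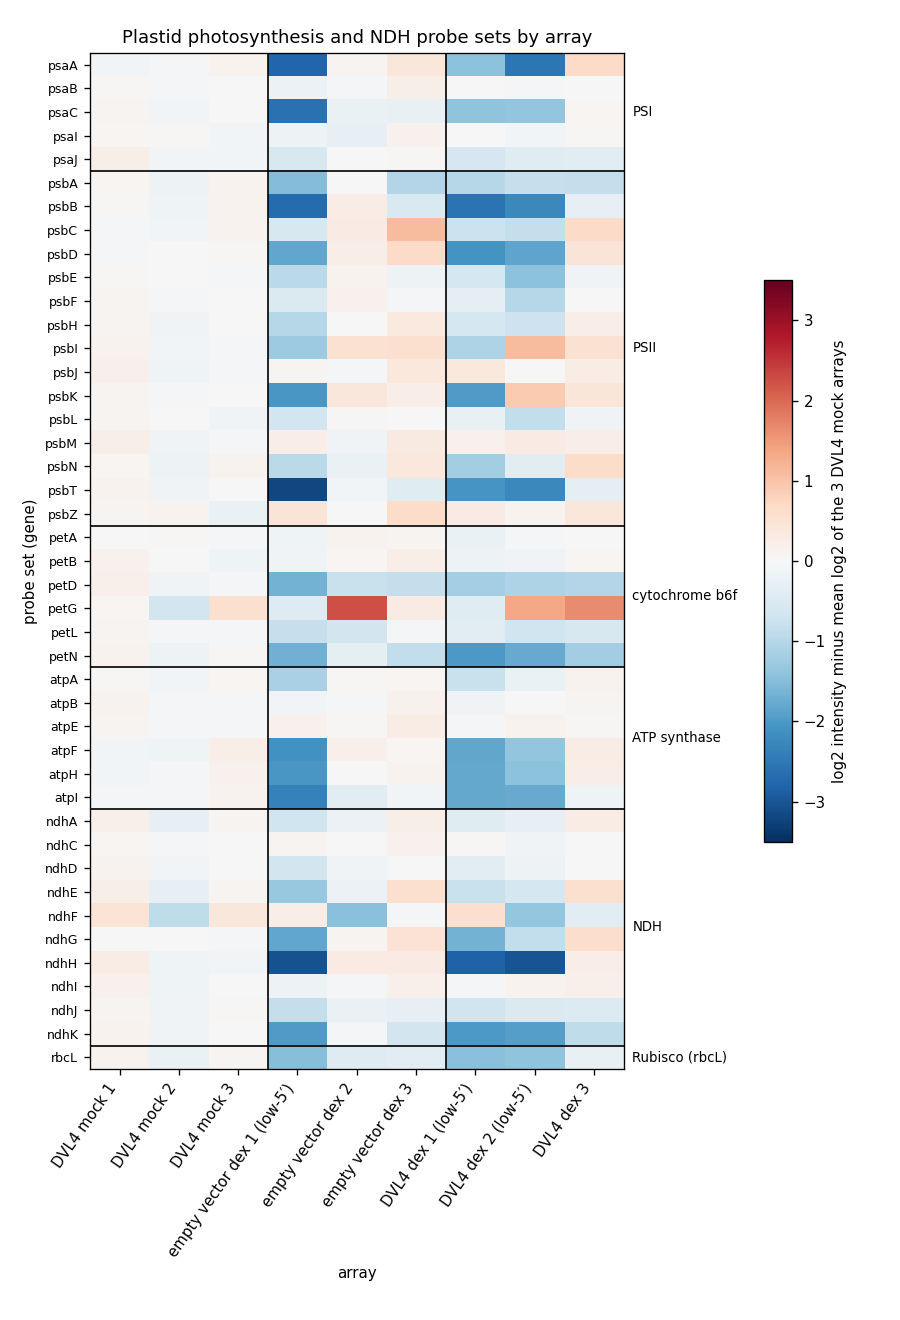
Heat map of the 43 plastid probe sets (vertical axis, by complex) in the 9 arrays (horizontal axis); colour is the log2 intensity in the array minus the mean log2 intensity of the 3 DVL4 mock arrays. The darkest blue cells, such as ndhH, psaA, psbB and psbT, lie in the columns of empty vector dex 1, DVL4 dex 1 and DVL4 dex 2, and psbK and psbI are blue in only the first 2 of these.

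Between DVL4 dex and DVL4 mock, 4 of the 43 members fell and none rose: petD and petN of cytochrome b6f, and ndhJ and ndhK of NDH. That is 9.30% of the members against 10.9% of all probe sets called lower, and 0 members against 12.8% called higher, so the share that fell was near the background. The median log2 change of the 43 members was -0.39, against 0.01 for all probe sets, and 36 of 43 changes were below 0. By complex the median was -0.46 for PSI, -0.37 for PSII, -0.32 for cytochrome b6f, -0.64 for the ATP synthase and -0.34 for NDH. The count of 4 became 10 without empty vector dex 1, 9 without DVL4 dex 3, 2 without DVL4 dex 1, DVL4 dex 2, mock 1 or mock 3, and 18 with array weights. The shares of all probe sets called in these settings are not given here, so these counts are not set against a background. In bulk leaf RNA, fewer plastids or cells of a type and less RNA in each cannot be told apart.

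petD encodes subunit IV of the cytochrome b6f complex, which links PSII to PSI. Its intensities were 80.4, 64.8 and 68.0 in the mock arrays, 22.6, 41.5 and 39.5 in the empty vector arrays and 31.0, 33.4 and 34.6 in the DVL4 dex arrays. petB, the gene listed before petD in the same operon, lay at 7545 to 10132. Its change in DVL4 dex against mock was -0.09 ± 0.12 (SE, limma adjusted p = 0.656). petD lay near or under the array medians of 75.4 to 84.1, and was dropped when dim probe sets were left out. All 3 mock arrays were above all 6 dex-treated arrays, with group means of 71.1 ± 8.23 in mock, 34.5 ± 10.4 in empty vector dex and 33.0 ± 1.86 in DVL4 dex (SD, n = 3). The log2 change in DVL4 dex against mock was -1.10 ± 0.24 (SE, limma adjusted p = 0.00967), a 2.15-fold lower level, while against empty vector dex it was -0.01 ± 0.24 (SE, limma adjusted p = 0.985). With low-5′ status as a term in the fit, the change against mock was -0.79 ± 0.24 (SE, limma adjusted p = 0.0562), a 1.72-fold lower level and no call. With the low-5′ arrays left out, where DVL4 dex is a single array, it was -1.03.

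petN encodes a small subunit of the same complex. Its intensities were 284, 234 and 272 in the mock arrays, 81.1, 206 and 144 in the empty vector arrays and 65.6, 77.9 and 112 in the DVL4 dex arrays. The mock arrays again lay above all dex-treated arrays, while DVL4 dex and empty vector dex overlapped. The change against mock was -1.66 ± 0.31 (SE, limma adjusted p = 0.00407), a 3.16-fold lower level. It was -1.08 ± 0.20 (SE, limma adjusted p = 0.00752) with low-5′ status as a term in the fit, still a call, and -1.23 ± 0.23 (SE, limma adjusted p = 0.0523) with the low-5′ arrays left out.

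ndhJ and ndhK encode neighbouring subunits of the part of the NDH complex that stands out from the membrane. ndhJ intensities were 1790.0, 1554 and 1729 in the mock arrays, 947, 1433 and 1380.5 in the empty vector arrays and 1039, 1179 and 1211 in the DVL4 dex arrays. The mock arrays lay above all others, and the change against mock was -0.57 ± 0.15 (SE, limma adjusted p = 0.0207), a 1.48-fold lower level. With low-5′ status in the fit it was -0.33 ± 0.13 (SE, limma adjusted p = 0.111), no call, and without the low-5′ arrays it was -0.48. ndhK intensities were 1239.9, 1059.5 and 1149 in the mock arrays, 288, 1122 and 733 in the empty vector arrays and 284, 299 and 620.2 in the DVL4 dex arrays. All DVL4 dex arrays lay below all mock arrays, but empty vector dex 2 lay among the mock arrays. The change in ndhK against mock was -1.61 ± 0.45 (SE, limma adjusted p = 0.0267), a 3.06-fold lower level, then -0.70 ± 0.20 (SE, limma adjusted p = 0.0454) with low-5′ status in the fit and -0.89 ± 0.25 (SE, limma adjusted p = 0.111) without the low-5′ arrays.

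**Figure D2:**
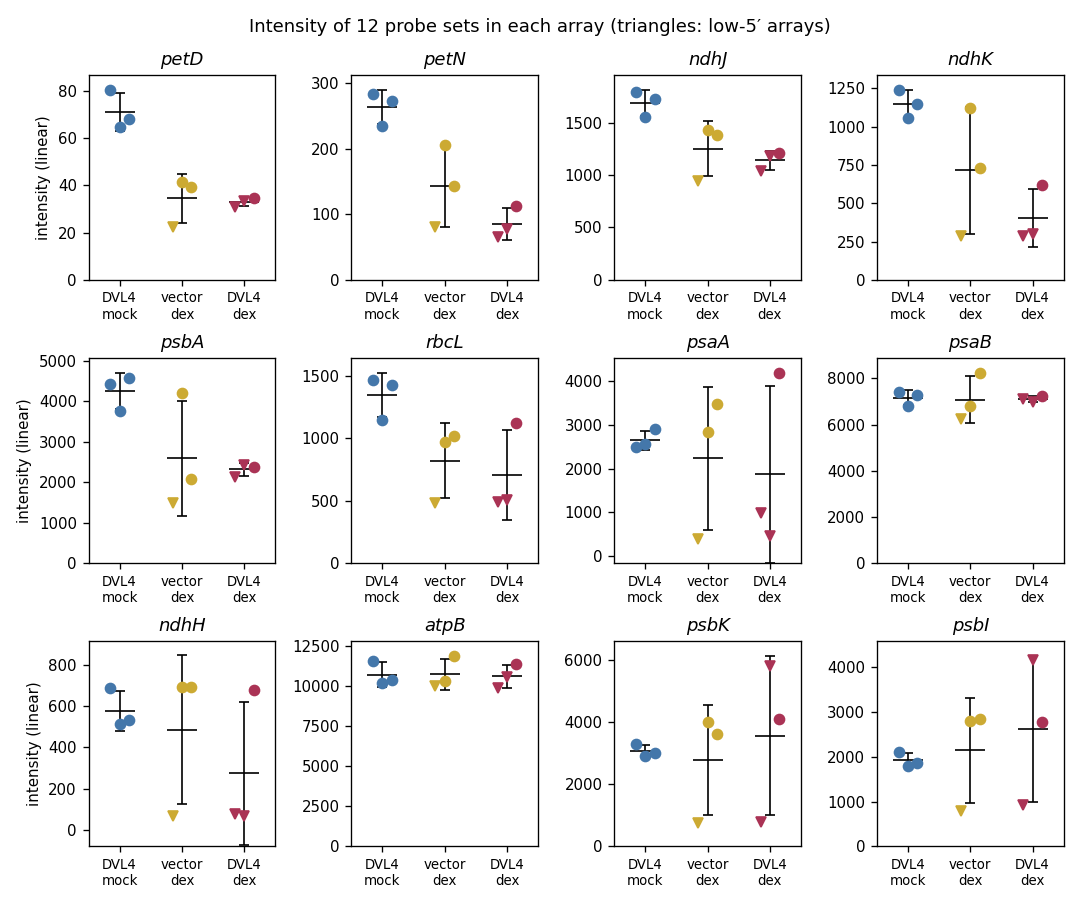
Linear intensity (vertical axes) of 12 probe sets in the 9 arrays by group (horizontal axes), 1 panel per gene; points are arrays, triangles the low-5′ arrays, and bars the mean ± SD of 3 arrays. For petD, petN and ndhJ the 3 mock arrays lie above all dex-treated arrays; psaA and ndhH separate by low-5′ status instead, psaB and atpB differ little, and psbK and psbI are high in DVL4 dex 2.

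Among the other members, 9 more had no overlap between DVL4 dex and mock, making 13 of 43 with all DVL4 dex arrays below all mock arrays (30.2%, against 20.1% of all probe sets) and none the other way (against 23.2%). psbA, which encodes the D1 protein of the PSII reaction centre, was one of them. Its intensities were 4427, 3756 and 4576 in the mock arrays, 1494, 4188 and 2083 in the empty vector arrays and 2130.0, 2423 and 2382 in the DVL4 dex arrays. Here DVL4 dex 3, a high-5′ array, lay beside the other DVL4 dex arrays and empty vector dex 3 lay there too, while empty vector dex 2 was as high as mock. The psbA change against mock was -0.88 ± 0.30 (SE, limma adjusted p = 0.0581), and without the low-5′ arrays -0.83 ± 0.39 (SE, limma adjusted p = 0.273). For rbcL, the large subunit of Rubisco, the intensities were 1466, 1144 and 1424 in the mock arrays, 478, 969 and 1013 in the empty vector arrays and 487, 501 and 1118 in the DVL4 dex arrays. All dex-treated arrays were below all mock arrays, and those of the low-5′ arrays were the lowest. The rbcL change against mock was -1.04 ± 0.35 (SE, limma adjusted p = 0.0581), and -0.26 ± 0.16 (SE, limma adjusted p = 0.395) with the low-5′ arrays left out. The intensities of psaJ, a small PSI subunit gene, were 7944, 6438 and 6538 in the mock arrays, 4730.4, 6854 and 7191 in the empty vector arrays and 4618, 5183 and 5386 in the DVL4 dex arrays. Those of petL, a small cytochrome b6f subunit gene, were 1263, 1147 and 1145 in the mock arrays, 681, 759.9 and 1161 in the empty vector arrays and 925, 733 and 797 in the DVL4 dex arrays. In both, DVL4 dex lay below mock in all arrays and overlapped empty vector dex. Both missed the threshold, with log2 changes against mock of -0.46 ± 0.16 (SE, limma adjusted p = 0.0595) and -0.54 ± 0.18 (SE, limma adjusted p = 0.0516). Without the low-5′ arrays these were -0.37 ± 0.15 (SE, limma adjusted p = 0.209) and -0.57 ± 0.24 (SE, limma adjusted p = 0.229). No member of PSI, PSII or the ATP synthase passed. The change of largest size was -1.10 ± 0.89 (SE, limma adjusted p = 0.428) in psaA for PSI, -1.71 ± 0.74 (SE, limma adjusted p = 0.128) in psbB for PSII and -1.23 ± 0.58 (SE, limma adjusted p = 0.167) in atpI for the ATP synthase. In these 3 genes the DVL4 dex arrays 1 and 2 were low and DVL4 dex 3 was near or above the mock arrays.

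With low-5′ status as a term in the fit, 2 of 43 members fell against mock (petN and ndhK) where 8.24% of all probe sets fell. With the 3 low-5′ arrays left out, DVL4 dex is a single array and its spread is taken from the other groups. The median change of the members was then 0.07, with 17 of 43 below 0, in place of -0.39 with all arrays. By complex it was 0.05 for PSI, 0.23 for PSII, 0.10 for the ATP synthase and 0.09 for NDH, all above 0, but -0.29 for cytochrome b6f. The members thus lay lower in DVL4 dex than in mock chiefly in the arrays DVL4 dex 1 and 2. The 6 lowest of the 43 values without those arrays were -1.23 in petN, -1.03 in petD, -0.89 in ndhK, -0.83 in psbA, -0.57 in petL and -0.48 in ndhJ. No empty vector array enters that contrast.

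**Figure D3:**
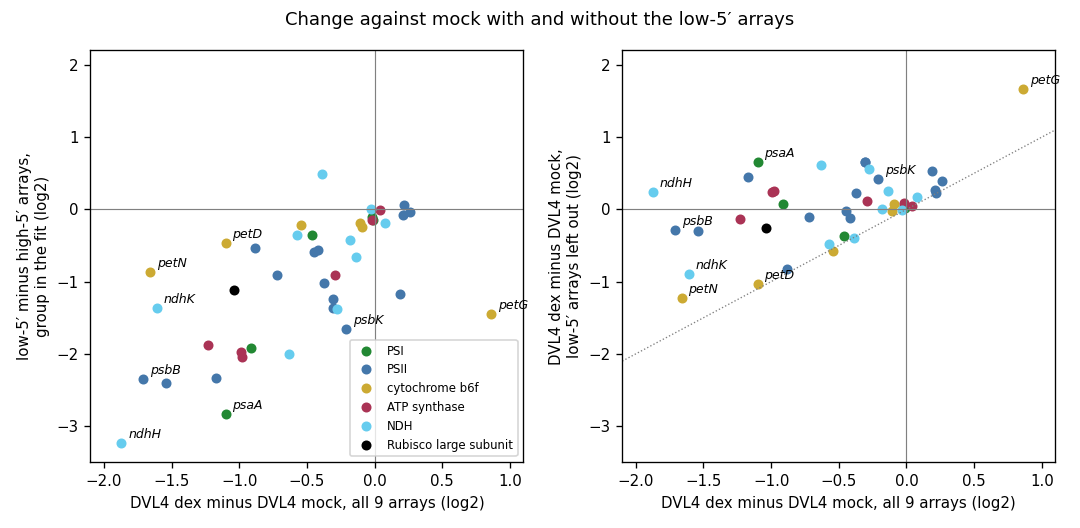
Each point is 1 of 43 plastid probe sets, coloured by complex; the horizontal axes give the log2 change of DVL4 dex against mock over all 9 arrays. The vertical axis is the log2 difference of low-5′ minus high-5′ arrays (left) or the DVL4 dex change with the low-5′ arrays left out (right, dotted line of equal values): petD and petN stay near the line, and ndhH, psaA and psbB move from below -1 to between -0.29 and 0.66.

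Against the empty vector line under the same dex treatment, none of the 43 members passed (10.2% of all probe sets did). Without empty vector dex 1, 3 members passed, and the share of all probe sets called in that setting is not given here. The median change was -0.11 over the members and 0.00 over all probe sets, and no member had groups that did not overlap, where DVL4 dex lay wholly above in 12.1% and wholly below in 13% of all probe sets. The values ran from -1.04 in ndhH to 0.25. The smallest limma p was in petN, at -0.69 ± 0.31 (SE, limma adjusted p = 0.213). The changes of largest size in the other complexes were -0.34 ± 0.89 (SE, limma adjusted p = 0.87) in psaA, -0.86 ± 0.72 (SE, limma adjusted p = 0.533) in psbD and -0.36 ± 0.64 (SE, limma adjusted p = 0.794) in atpF. By complex the medians were 0.02 for PSI, -0.15 for PSII, -0.09 for cytochrome b6f, -0.19 for the ATP synthase and -0.03 for NDH. This comparison sets 2 low-5′ arrays of 3 against 1 of 3. With low-5′ status in the fit 1 member was called, psaC, which encodes the iron-sulfur subunit of PSI, at 0.77 ± 0.17 (SE, limma adjusted p = 0.0217), where 4.94% of all probe sets were called higher. With the low-5′ arrays left out, 0 members were called and the median was 0.04, but only 4 of all probe sets (0.0176%) passed there.

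The comparison of the control groups, DVL4 mock minus empty vector dex, shares arrays with both comparisons above. 1 of 43 members was higher in mock, petD at 1.09 ± 0.24 (SE, limma adjusted p = 0.0306), or 2.33% of the members against 2.06% of all probe sets called higher. petN was at 0.97 ± 0.31 (SE, limma adjusted p = 0.101), psbA at 0.85 ± 0.30 (SE, limma adjusted p = 0.128), rbcL at 0.78 ± 0.35 (SE, limma adjusted p = 0.236) and ndhK at 0.89 ± 0.45 (SE, limma adjusted p = 0.293). In 6 of 43 members all mock arrays lay above all empty vector arrays (14.0%, against 11.9% of all probe sets). The median of the members was 0.31, and -0.06 once the low-5′ arrays were left out. With low-5′ status in the fit, 2 of 43 were higher in mock (2.26% of all probe sets), petD at 0.93 ± 0.21 (SE, limma adjusted p = 0.0354) and rbcL at 0.41 ± 0.10 (SE, limma adjusted p = 0.0487). Without the low-5′ arrays 1 of 43 was called, psbI, a small PSII subunit gene, lower in mock at -0.56 ± 0.09 (SE, limma adjusted p = 0.0496), where 1.79% of all probe sets were lower. The petD call was lost without DVL4 dex 1, DVL4 dex 2 or any 1 mock array, and 4 members were called without empty vector dex 2. The share of all probe sets called in those settings is not given here.

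The 3 low-5′ arrays differed from the others in these genes across both dex-treated lines. In a fit with group and low-5′ status as terms, chosen after the arrays had been seen, 18 of 43 members (41.9%) were lower in the low-5′ arrays and none was higher, where 1.47% of all probe sets were called lower and 0.409% higher. The coefficient rests on the 6 dex-treated arrays, since no mock array is low-5′. The count became 7 without empty vector dex 1 or without DVL4 dex 3, and 0 when arrays were classed by the other dap probe set on the array, whose ratio in DVL4 dex 3 was 0.481 and so also under 0.5. That ratio was 0.193 to 0.231 in the 3 low-5′ arrays and 0.481 to 0.7445 in the other 6. With DVL4 dex 3 classed as low, every DVL4 dex array is low, and the coefficient rests on the empty vector dex arrays alone. Shares of all probe sets called in those settings are not given here. The median was -0.87 over the members and 0.03 over all probe sets, and 19 members (44.2%) lay at or under -1, as did 1.45% of all probe sets. In 32 of 43 members (74.4%) the low-5′ arrays lay below the high-5′ arrays within both dex-treated groups, against 16.3% of all probe sets. 5 of the 10 probe sets with the lowest coefficients of all 22746 were members, ndhH, psaA, psbT, psbB and psbD, with ndhH lowest of all.

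ndhH encodes a subunit of the NDH arm outside the membrane. Its intensities were 689, 513 and 532 in the mock arrays, 69.6, 693 and 693 in the empty vector arrays and 80.4, 70.6 and 675 in the DVL4 dex arrays. The 3 low-5′ arrays lay at 69.6 to 80.4 and the 6 others at 513 to 693, with mock, empty vector dex and DVL4 dex overlapping among them. The low-5′ coefficient was -3.24 ± 0.13 (SE, limma adjusted p = 1.53e-05), a 9.44-fold lower level, whereas the DVL4 dex change against mock was -1.87 ± 0.99 (SE, limma adjusted p = 0.215) over all arrays and 0.24 without them.

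In PSI, psaA and psaB encode the pair of large proteins that bind the reaction centre chlorophylls. psaA intensities were 2493, 2567 and 2901 in the mock arrays, 389.6, 2847 and 3479.9 in the empty vector arrays and 975, 462 and 4193 in the DVL4 dex arrays. The low-5′ arrays lay at 975 or less and the others at 2493 or more, giving a coefficient of -2.83 ± 0.25 (SE, limma adjusted p = 0.00169). psaB intensities were 7422, 6786 and 7268 in the mock arrays, 6235, 6783 and 8223 in the empty vector arrays and 7108, 6981 and 7252 in the DVL4 dex arrays. Of the low-5′ arrays, DVL4 dex 1 and 2 lay within the range of the others and empty vector dex 1 just below it, and the coefficient was -0.15 ± 0.10 (SE, limma adjusted p = 0.427). psaC intensities, for the iron-sulfur subunit, were 2158, 1877 and 2003 in the mock arrays, 327, 1718 and 1669.5 in the empty vector arrays and 756, 773 and 2107 in the DVL4 dex arrays. The low-5′ arrays were again the lowest 3, and the coefficient was -1.92 ± 0.17 (SE, limma adjusted p = 0.00169), while the small subunits psaI and psaJ had -0.11 ± 0.11 and -0.35 ± 0.12. So 2 of 5 PSI members were lower in the low-5′ arrays and the complex median was -0.35.

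In PSII, 6 of 15 members were lower, with a complex median of -1.02. psbB and psbC encode the inner antenna proteins CP47 and CP43, and psbD the D2 reaction centre protein. psbB intensities were 1565, 1359 and 1637 in the mock arrays, 236, 1819 and 1055 in the empty vector arrays and 253, 317 and 1244 in the DVL4 dex arrays. psbD intensities were 879, 937 and 947 in the mock arrays, 261, 1080.1 and 1461 in the empty vector arrays and 215, 255 and 1256 in the DVL4 dex arrays. For both, the low-5′ arrays were the lowest 3 by a wide margin, and the coefficients were -2.35 ± 0.21 (SE, limma adjusted p = 0.00169) for psbB and -2.34 ± 0.12 (SE, limma adjusted p = 8.57e-05) for psbD. psbT, a small subunit, had -2.40 ± 0.21 (SE, limma adjusted p = 0.00171), psbC -1.36 ± 0.19 (SE, limma adjusted p = 0.0117), and psbH, a small phosphoprotein, -1.02 ± 0.11 (SE, limma adjusted p = 0.00373). psbN, an assembly factor encoded on the opposite strand between psbT and psbH, had -1.24 ± 0.25 (SE, limma adjusted p = 0.0477). psbE and psbF encode cytochrome b559, and their coefficients were -0.91 ± 0.19 and -0.59 ± 0.16, with -0.53 ± 0.27 for psbA and -0.56 ± 0.15 for the small subunit gene psbL, none a call. The small subunit genes psbJ, psbM and psbZ lay between -0.08 and 0.06.

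psbK and psbI, small PSII subunits transcribed together, did not follow low-5′ status. psbK intensities were 3287, 2911 and 3017 in the mock arrays, 749.7, 4003 and 3630.3 in the empty vector arrays and 772, 5810.0 and 4116 in the DVL4 dex arrays. psbI intensities were 2102, 1804 and 1858 in the mock arrays, 789, 2796 and 2851 in the empty vector arrays and 913, 4165 and 2772 in the DVL4 dex arrays. Both were low in empty vector dex 1 and DVL4 dex 1 but highest of all arrays in DVL4 dex 2, also a low-5′ array. Their coefficients, -1.65 ± 0.65 (SE, limma adjusted p = 0.211) and -1.17 ± 0.51 (SE, limma adjusted p = 0.253), were no calls.

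In the cytochrome b6f complex 1 of 6 members was lower in the low-5′ arrays, petN at -0.87 ± 0.18 (SE, limma adjusted p = 0.0485), and the median was -0.36. petB, which encodes cytochrome b6, had intensities of 9522, 8553 and 7808 in the mock arrays, 7886, 8981 and 10132 in the empty vector arrays and 7545, 7824 and 9018 in the DVL4 dex arrays. The groups overlapped, and petB and petA, the gene for cytochrome f, had coefficients of -0.25 ± 0.09 and -0.19 ± 0.07. petG, a small subunit, varied within groups, with intensities of 127, 78.7 and 180.5 in the mock arrays, 89.6, 584 and 147 in the empty vector arrays and 90.9, 309.8 and 385 in the DVL4 dex arrays. It was high in empty vector dex 2, DVL4 dex 2 and DVL4 dex 3 and followed neither treatment nor low-5′ status, with a change against mock of 0.86 ± 0.71 (SE, limma adjusted p = 0.438).

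In the ATP synthase 4 of 6 members were lower, the highest share of the 5 complexes, with a median of -1.40. atpI, atpH and atpF encode membrane subunits of the proton channel and stalk and atpA the alpha subunit of the catalytic head. atpF intensities were 3508, 3382 and 4367 in the mock arrays, 856, 4231 and 3934 in the empty vector arrays and 1056, 1437 and 4422 in the DVL4 dex arrays. The low-5′ arrays lay at 1437 or less and the others at 3382 or more. The coefficients were -2.05 ± 0.15 (SE, limma adjusted p = 0.00063) for atpF, -1.97 ± 0.12 (SE, limma adjusted p = 0.000271) for atpH, -1.88 ± 0.13 (SE, limma adjusted p = 0.000486) for atpI and -0.91 ± 0.17 (SE, limma adjusted p = 0.0335) for atpA. atpB, the beta subunit of the head, had intensities of 11617, 10209.8 and 10395 in the mock arrays, 10046, 10337 and 11876 in the empty vector arrays and 9886, 10603 and 11375 in the DVL4 dex arrays. Its arrays overlapped throughout, and atpB and the epsilon subunit gene atpE had coefficients of -0.15 ± 0.09 and -0.01 ± 0.09.

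In NDH 4 of 10 members were lower, with a median of -0.55. Besides ndhH these were ndhG at -2.00 ± 0.19 (SE, limma adjusted p = 0.00241) and ndhE at -1.38 ± 0.21 (SE, limma adjusted p = 0.0176), which encode membrane subunits, and ndhK at -1.37 ± 0.18 (SE, limma adjusted p = 0.00922). ndhC, another membrane subunit gene, had intensities of 3941 to 4719 over the 9 arrays and a coefficient of 0.00 ± 0.08 (SE, limma adjusted p = 0.995). ndhF, also a membrane subunit gene, had intensities of 39.5, 15.3 and 37.4 in the mock arrays, 33.0, 10.3 and 27.0 in the empty vector arrays and 41.7, 11.1 and 21.6 in the DVL4 dex arrays. The second array was the lowest in each group, and the groups overlapped. Its change against mock was -0.39 ± 0.59 (SE, limma adjusted p = 0.692), and its low-5′ coefficient 0.49 ± 0.63 (SE, limma adjusted p = 0.724). rbcL was also lower in the low-5′ arrays, at -1.11 ± 0.10 (SE, limma adjusted p = 0.00193).

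**Figure D4:**
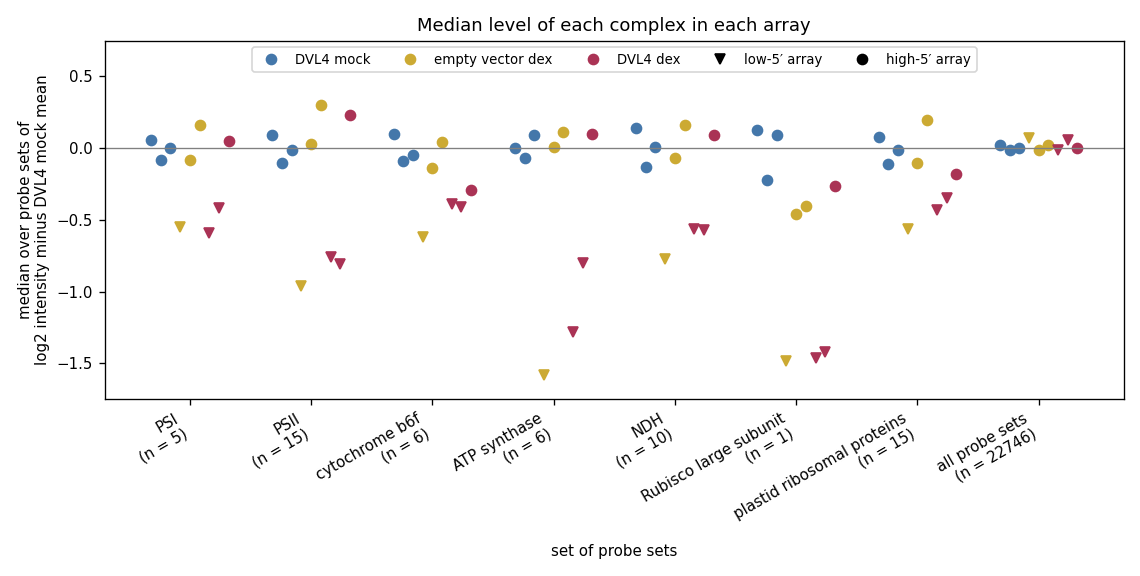
Median over the probe sets of each set (horizontal axis, n in brackets) of log2 intensity minus the DVL4 mock mean (vertical axis), 1 point per array, coloured by group; triangles are low-5′ arrays. In every complex the 3 triangles lie lowest, down to -1.58 for the ATP synthase in empty vector dex 1, while all probe sets stay between -0.01 and 0.07.

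By complex and array, the low-5′ arrays had the lowest medians of the 9 in each of the 5 complexes. In PSII the median relative to mock was -0.96 in empty vector dex 1, -0.76 in DVL4 dex 1 and -0.81 in DVL4 dex 2, against 0.03 and 0.30 in empty vector dex 2 and 3 and 0.23 in DVL4 dex 3. In the ATP synthase it was -1.58, -1.28 and -0.80 in the low-5′ arrays, against 0.01, 0.11 and 0.10. Cytochrome b6f was the complex in which DVL4 dex 3 lay closest to the other DVL4 dex arrays, at -0.29 beside -0.39 and -0.41, while empty vector dex 2 and 3 were at -0.14 and 0.04.

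The dimmer members carried more of the low-5′ difference. Of the 21 members in the lower part of the brightness order over the high-5′ arrays, 14 lay at or under -1, with a median of -1.36. Of the 22 in the upper part 5 did, with a median of -0.39, and of the 11 with a mean above 5000 none did, with a median of -0.19. Spearman's rho between brightness and coefficient was 0.45 over the 43 genes, which share arrays and operons. Intensities of different probe sets are not on one scale of abundance, and whether bright probe sets were near the top of the scale, where the highest value was 13116, was not tested.

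Genes of 1 operon differed among themselves. In the psbB operon the coefficients were -2.35 for psbB, -2.40 for psbT and -1.02 for psbH, and then -0.25 for petB and -0.47 for petD. In the psbD operon they were -2.34 for psbD, -1.36 for psbC and -0.03 for psbZ. The psaA operon ran from -2.83 in psaA through -0.15 in psaB to 0.38 in rps14, a ribosomal protein gene. In these 3 operons the first gene had a lower coefficient than the last. The first gene was lower than the last in 7 of 11 listed operons. In the ndhH operon the order was broken, with -3.24 in ndhH, -0.66 in ndhA, -0.19 in ndhI, -2.00 in ndhG, -1.38 in ndhE, -1.92 in psaC and -0.43 in ndhD. In the operon of rps2, atpI, atpH, atpF and atpA all 5 genes were called lower, and in that of ndhC, ndhK and ndhJ only the middle gene was. The operons were chosen with the values known, and no test was made of position.

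**Figure D5:**
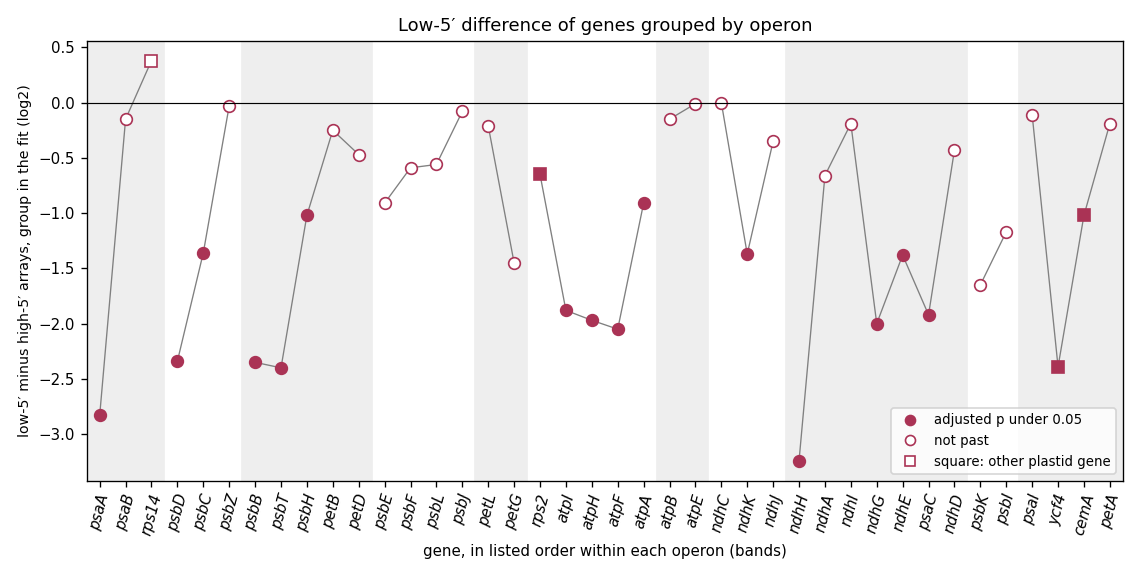
Log2 difference of low-5′ minus high-5′ arrays (vertical axis) for genes in listed order within 11 plastid operons (horizontal axis, bands); filled symbols passed the limma threshold and squares are plastid genes outside the 43. psaA, psbD, psbB and ndhH, the first genes of their operons, lie between -3.24 and -2.34, and psaB, psbZ and petB, further along, between -0.25 and -0.03. Other first genes, petL, atpB, psaI and ndhC, lie between -0.21 and 0.00, and the later genes psbT, ycf4 and atpF lie at -2.40, -2.39 and -2.05. The first gene is lower than the last in 7 of the 11 operons.

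Nuclear genes of the same complexes lay close to 0 in the low-5′ comparison. 9 of the 40 listed nuclear subunit and activase genes had a named probe set, with coefficients from -0.10 to 0.33. None of the 9 was called in the low-5′ arrays, where 1.47% of all probe sets were called lower and 0.409% higher. NDHL and NDHN lay at 1598 to 3135, and the others of the 9 at 6349 or more in each array. Plastid members with a mean above 5000 also lay near 0, with a median of -0.19. Whether the difference between nuclear and plastid genes follows brightness was not tested. Against mock 1 of the 9 fell, where 10.9% of all probe sets fell. It was NDHN, a nuclear gene for a subunit of NDH, at -0.51 ± 0.11 (SE, limma adjusted p = 0.00923). NDHN was also lower than in empty vector dex, at -0.45 ± 0.11 (limma adjusted p = 0.032). Of 9 listed nuclear factors for plastid photosynthesis mRNAs, only CRP1 had a named probe set. It is a nuclear-encoded protein needed in maize for processing petD RNA and for translating petA and psaC. CRP1 fell against mock by 0.47 ± 0.09 on the log2 scale (limma adjusted p = 0.00505). It was also lower than in empty vector dex, at -0.39 ± 0.09 (limma adjusted p = 0.0253). Without the low-5′ arrays neither was called, with changes against mock of -0.45 ± 0.15 in NDHN (SE, limma adjusted p = 0.155) and -0.39 ± 0.13 in CRP1 (SE, limma adjusted p = 0.147). Against empty vector dex they were -0.29 ± 0.16 in NDHN (SE, limma adjusted p = 0.452) and -0.35 ± 0.13 in CRP1 (SE, limma adjusted p = 0.287). RPOTMP, an RNA polymerase of plastids and mitochondria, was not called in any of the 3 group comparisons. Its intensities were 10.4 to 22.1, under the array medians of 75.4 to 84.1, so the lack of a call says little. No nuclear sigma factor gene had a named probe set here.

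Plastid genes outside the 43 were counted in the same way, where 10.9% of all probe sets fell against mock and 1.47% were lower in the low-5′ arrays. Of 15 plastid ribosomal protein genes 5 fell against mock and 5 were lower in the low-5′ arrays, with medians of -0.30 and -0.40. Of 4 plastid RNA polymerase genes 1 fell against mock and 1 was lower in the low-5′ arrays, with medians of -0.69 and -0.63. Of 7 other plastid genes 1 fell and 4 were lower in the low-5′ arrays, with medians of -0.51 and -0.69. Without the low-5′ arrays the counts that fell against mock were 1 of 15, 0 of 4 and 1 of 7, with medians of -0.18, -0.15 and -0.01, and 5.98% of all probe sets were called in either direction. The low-5′ difference was thus measured in plastid genes beyond the photosynthesis and NDH genes, and no test compared these groups.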

How the data were processed

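RNA from 9 leaf pools was hybridised to 9 ATH1 arrays, 3 per group, and the authors computed the deposited intensity values in dChip, per the labels. The dChip version, its model and its background setting were not stated there. The table held 22810 probe sets, of which 64 AFFX controls were left out of the tests. Values were raised to the pooled 5th percentile (4.92) and put on the log2 scale. limma 3.58.1 (R 4.3.3) was fitted with lmFit and eBayes with a trend, by group, with Benjamini-Hochberg adjustment over 22746 probe sets and a threshold of 0.05. The script was tested on simulated data.

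Genes were named from the platform's annotation, and the plastid genome's gene order from RefSeq. The members, lists, operons and low-5′ classes were chosen with earlier results of these data known, so none gives independent support to a pattern. All members are accounted for. Those past the threshold were named, up to 4 per complex by p, and otherwise the one with the largest change. Arrays of each group are separate leaf pools, so p-values measure the spread between pools, and the number of arrays limits the precision. The labels do not state that a replicate number marks a shared batch. Deviations of same-numbered arrays correlated at -0.148 to 0.140, and those of differently numbered arrays at -0.297 to 0.231. With 3 arrays per group and low-5′ status crossing the numbers, these correlations cannot show whether the arrays were paired. Alternatives were other floors, normalizations, filters, variance settings, array weights, a replicate block, low-5′ status in the fit and arrays left out. The sequences of probes and genes were not used here.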

Additional observations from a re-analysis of the deposited data

How the results depend on the processing

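With 3 arrays per group, of which the mock group holds no low-5′ array, the counts moved with the settings. The share of all probe sets called is not given for most of these settings, so the counts are not set against a background. The called changes of petD, petN, ndhJ and ndhK kept their sign in the settings run, but psaA, no call, went from -1.10 against mock to 0.66, and the median changes against mock of PSI, PSII, the ATP synthase and NDH went from below 0 to 0.05, 0.23, 0.10 and 0.09, without the low-5′ arrays. For mock minus empty vector dex the call changed without them from petD, higher, to psbI, lower. Against mock, 4 members were called. The count was 7 with median centring, 2 with a floor at the 25th percentile, 8 with no floor, 7 with dim probe sets left out, 2 without the variance trend, 18 with array weights, 7 with the 2 groups alone, 2 with low-5′ status in the fit and 0 without the low-5′ arrays. With 1 array left out at a time it ran from 2 to 10. It was 10 without empty vector dex 1, 9 without DVL4 dex 3, and 2 without DVL4 dex 1, DVL4 dex 2, mock 1 or mock 3. Of the 4 genes, petN was called in 20 of 21 alternative settings, petD in 18 of 20, and ndhJ and ndhK in 13 of 21 each. Most of these settings keep low-5′ arrays in DVL4 dex and none in mock, so these tallies do not address that imbalance. With low-5′ status in the fit, petN and ndhK were called, and petD and ndhJ were not. Against empty vector dex, the count of 0 became 1 with array weights and 1 with low-5′ status in the fit, and ran from 0 to 3 with 1 array left out, with 3 without empty vector dex 1. For mock minus empty vector dex, the count of 1 became 0 with the floor at the 25th percentile, 3 with array weights, 0 with the 2 groups alone, 2 with low-5′ status in the fit, and ran from 0 to 4 with 1 array left out, with 4 without empty vector dex 2 and 0 without DVL4 dex 1, DVL4 dex 2 or any 1 mock array. The replicate block, for numbers not stated to mark a shared batch, gave 5, 0 and 0 calls in these 3 comparisons. The count of 18 members lower in the low-5′ arrays, a fit added after the data had been seen, became 7 with the replicate block, 6 with the dex-treated groups alone and 0 when the arrays were classed by the other dap probe set, which places DVL4 dex 3 at 0.481, under 0.5. It ran from 7 to 18 with 1 array left out, and was 7 without empty vector dex 1 or without DVL4 dex 3. Classing by the other dap probe set leaves no high-5′ array in DVL4 dex, so the difference there rests on the empty vector dex arrays alone. Where the arrays left out leave a group with 1 array, limma takes its spread from the other groups. The causes of these differences were not tested. Dim members such as ndhF and petD, with intensities near or under the array medians, are the least well measured.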

Other observations

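Among organelle genes outside the plastid, the 21 probe sets with mitochondrial nad, ccb and cox symbols, several of which share a gene, had a median log2 change of 0.47 against mock, and 6 (28.6%) were called higher and none lower, where 12.8% of all probe sets were called higher and 10.9% lower. These genes encode subunits of respiratory complexes and cytochrome c maturation proteins. In the low-5′ comparison 1 of the 21 was called, higher (0.409% of all probe sets), with a median of 0.32. With low-5′ status in the fit, 2 of the 21 were called higher against mock (9.33% of all probe sets), with a median of 0.35. Against empty vector dex with all arrays, 1 of the 21 was called higher (4.63% of all probe sets), with a median of 0.18. Without the low-5′ arrays, where DVL4 dex is a single array, the median of the 21 against mock was 0.30.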
